A study of Mus musculus with 20 samples.

Results

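The genes described here are 34 genes of the endoplasmic reticulum (ER), out of 23992 gene symbols with deposited counts. They were chosen by name and function, with earlier results of these data known, as chaperones and folding enzymes of the ER, sensors of the unfolded protein response, genes of ER-associated degradation and genes of entry into the secretory pathway. All 34 were found, and all 34 passed the filter on low counts in both experiments. RNA was sequenced from CD8+ T cells isolated from the spleens of wild-type C57BL/6J mice aged 6 to 8 weeks. The cells were pre-activated for 48 hours with anti-CD3 and anti-CD28 antibodies, and rested overnight. They then spent 24 hours in culture with murine IL-21 (mIL-21) or with 21h10, a computationally designed mimic of IL-21. Unstimulated cells were without cytokine, and their titles give no time in culture. Experiment 1 covered the doses 100 pM and 1 nM of both cytokines and experiment 2 the doses 10 nM and 100 nM, and each had unstimulated cells of its own. Duplicate libraries (n = 2) were made of every group, 5 groups to an experiment and 20 libraries in all. All groups, the unstimulated ones included, had been activated through the T cell receptor and CD28. The labels number the duplicates without naming the animals, so p-values measure the spread between these libraries only.

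Proteins that are to be secreted or placed in a membrane enter the ER through the Sec61 channel, lose their signal peptide to the signal peptidase complex, and fold with the help of BiP (Hspa5), GRP94 (Hsp90b1), the lectins calreticulin and calnexin, and protein disulfide isomerases. Proteins that fail to fold are returned to the cytosol and degraded, with Sel1l and Syvn1 forming the core of the membrane complex that does so. When unfolded proteins accumulate, IRE1α (Ern1) splices the mRNA of Xbp1, and ATF6 (Atf6) is cleaved to release a transcription factor. The spliced XBP1 and the cleaved ATF6 raise the transcription of chaperone and degradation genes, in part through the ER stress response element (ERSE) in their promoters. The response is best known from plasma cells, and it is also engaged in activated and effector T cells, which enlarge their ER and make cytokines and cytotoxic proteins.

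The promoter element is shown first, because the members that hold it are set apart in a later paragraph. They were divided by sequence, with their responses already known. Promoter windows of 300 bases (250 before and 50 after the transcription start, RefSeq on GRCm38.p6) were found for 26 of the 34 members. ERSE was searched on both strands as CCAAT, 9 bases of any kind and CCACG. It was present in 8 of these 26 members (30.8%) and in 37 of all 27025 genes with a window (0.137%). The members were chosen by function, many as genes of the response that ERSE serves. A high share was thus likely from the choice itself, and no result is drawn from it. ERSE-II, searched as ATTGG, 1 base of any kind and CCACG, was present in 2 members (7.69%), Herpud1 and Dnajb11, against 12 of all genes (0.0444%). In Dnajb11 the match starts 7 bases downstream of the transcription start, and it is not printed here. The element TGACGTGG, known as the UPRE, was in 0 of the 26 members and in 0.714% of all genes with a window. CCACG and the CGTGG at the end of the UPRE are the same letters on opposite strands, so these motifs can overlap. A match is a description of the letters and not evidence of a bound site. The other matches of ERSE and ERSE-II in members are printed 5′ to 3′ on the strand of the gene, with the motif in capitals and 11 bases on either side. Where the capitals begin with CGTGG, the motif lies on the opposite strand.
Hspa5, ERSE starting 65 bases upstream of the start, chr2:34772014-34772054, + strand: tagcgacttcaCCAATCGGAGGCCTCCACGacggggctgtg
Hsp90b1, first ERSE, 212 bases upstream, chr10:86705627-86705667, - strand: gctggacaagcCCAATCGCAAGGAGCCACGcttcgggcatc
Hsp90b1, second ERSE, 107 bases upstream, chr10:86705522-86705562, - strand: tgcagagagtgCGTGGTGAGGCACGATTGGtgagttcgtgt
Calr, ERSE, 162 bases upstream, chr8:84847064-84847104, - strand: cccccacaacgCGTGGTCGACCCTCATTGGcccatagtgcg
Creld2, ERSE, 126 bases upstream, chr15:88819509-88819549, + strand: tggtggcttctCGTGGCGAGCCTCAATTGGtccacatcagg
Canx, ERSE, 145 bases upstream, chr11:50325789-50325829, - strand: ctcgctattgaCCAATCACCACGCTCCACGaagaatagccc
Pdia6, ERSE, 98 bases upstream, chr12:17266480-17266520, + strand: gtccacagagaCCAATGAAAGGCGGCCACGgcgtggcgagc
Dnajc3, ERSE, 105 bases upstream, chr14:118937816-118937856, + strand: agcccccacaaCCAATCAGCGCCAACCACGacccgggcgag
Syvn1, ERSE, 44 bases upstream, chr19:6046521-6046561, + strand: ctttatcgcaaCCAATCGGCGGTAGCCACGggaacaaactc
Herpud1, ERSE-II, 52 bases upstream, chr8:94386366-94386398, + strand: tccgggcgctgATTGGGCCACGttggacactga

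The libraries of experiment 1 held 36824740 to 94070730 reads on genes and those of experiment 2 held 27072917 to 43300094. Duplicates of experiment 1 differed by a biological coefficient of variation of 4.325%, against 8.796% for experiment 2, so smaller differences could be called in experiment 1. The cells carried the markers of CD8+ T cells in every library, with Cd3e at 130 to 336 RPKM (reads per kilobase of transcript, scaled to the mapped reads) and Cd8a at 102 to 150 RPKM. Markers of B and plasma cells, in which many ER genes are high, included several near 0, with at most 0.388 RPKM for Ms4a1, 0.357 for Igj and 0.0279 for Tnfrsf17. Sdc1, on the same list, reached 1.42 RPKM. The summed level of that marker list lay between 2.96 and 11.2 RPKM and was made up mostly of Cd79b. In experiment 1 it lay between 8.2 and 8.27 RPKM in unstimulated cells. It was between 10.8 and 11.2 under mIL-21 at 100 pM and between 5.31 and 5.66 under 21h10 at 1 nM. In experiment 2 it lay between 6.37 and 8.36 RPKM in unstimulated and between 2.96 and 4.38 in treated cells. The myeloid list moved with treatment, from at most 0.268 RPKM in unstimulated to between 2.84 and 14.0 in treated cells of experiment 1 and from at most 0.805 to between 6.31 and 16.6 RPKM in experiment 2. It was made up almost wholly of Itgam, while Csf1r reached at most 0.0128 and Lyz2 at most 0.232 RPKM. The dendritic cell list summed to between 0.979 and 8.73 RPKM and was highest under mIL-21 at 100 pM, and the lists for CD4 and regulatory T cells, NK cells and erythroid cells stayed at or under 1.1, 0.461 and 0.325 RPKM. The part of these transcripts in the members' results was not tested.

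Levels of the members, compared per length as mean RPKM over all 20 libraries, spanned from 286 for Hsp90b1, the ER form of the HSP90 chaperone, to 1.25 for Ern1. The next in this mean were Calr at 278, Pdia3 at 228, P4hb at 187 and Hspa5 at 165 RPKM, all of them proteins that fold others in the lumen. The order differed between groups. Calr stood above Hsp90b1 in the unstimulated cells of experiment 1, at 447 against 403 RPKM, and in 3 treated groups of experiment 2. P4hb was the most abundant member in 3 treated groups of experiment 1, at 287 RPKM under 21h10 at 100 pM, and lay below Hspa5 in all 4 treated groups of experiment 2. Sec61b was the most abundant gene of secretory entry at 116 RPKM. Its reads are uncertain, because 84.0% of its transcript matches the copy Gm10320 at 98.312% identity. Edem1 was the most abundant degradation gene at 36.0 RPKM, and Xbp1 the most abundant gene of the sensor group at 34.9 RPKM.

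In experiment 1, lumenal chaperones fell in cells given either cytokine, while the sensor Atf6 rose. With mIL-21 at 100 pM, 27 of the 34 members were lower than in unstimulated cells and 5 were higher, at an edgeR adjusted p under 0.05. Of all genes tested, 39.4% were lower and 38.3% higher, so that genes at large were called in both directions about equally. With 21h10 at 100 pM, 21 members were lower and 7 higher, against 41.3% and 40.2% of all genes. With mIL-21 at 1 nM the members came to 22 lower and 7 higher, against 40.3% and 39.9% of all genes. With 21h10 at 1 nM they came to 21 lower and 11 higher, against 42.1% and 38.3%. The members were thus called lower more often, and higher less often, than genes at large in all 4 comparisons. The median log2 fold change of the members was -0.41, -0.37, -0.40 and -0.26 in this order. With library sizes from the mapped reads the median of all genes under 21h10 at 1 nM moved to -0.12 and 22 members were lower and 10 higher. In bulk RNA, fewer cells expressing a gene and less of its RNA per cell cannot be told apart. The heatmap of fold changes gives each member's response.

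**Figure D1:**
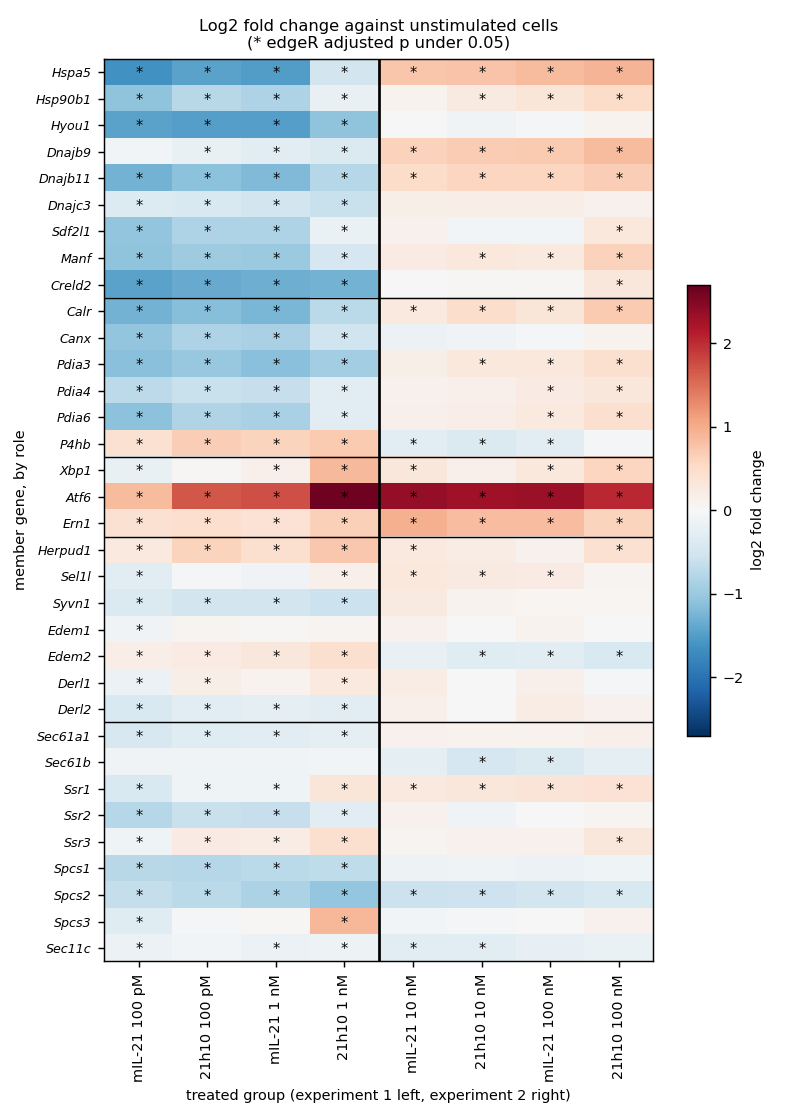
Log2 fold change of each of the 34 members (rows, by role from lumenal folding at the top to secretory entry at the bottom) in each treated group against the unstimulated cells of its own experiment (columns), with an asterisk where the edgeR adjusted p was under 0.05. In experiment 1, 19 members were lower in all 4 treated groups and 5 were higher in all 4, and in experiment 2 the numbers were 1 and 7. The share of all genes called in all 4 groups was not counted.

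Of the 9 members that fold proteins in the lumen, 8 fell in all 4 treated groups of experiment 1: Hspa5, Hsp90b1, Hyou1, Dnajb11, Dnajc3, Sdf2l1, Manf and Creld2. Hspa5 encodes BiP, the HSP70 chaperone that also holds the sensors inactive (transcript NM_022310, chr2:34772090-34776529, + strand, mm10). Its counts scaled to library size (CPM, with TMM factors) were 811 and 793 in unstimulated cells, 260.4 and 255 under mIL-21 at 100 pM, 292 and 300.1 under 21h10 at 100 pM, 294 and 271 under mIL-21 at 1 nM, and 536 and 604 under 21h10 at 1 nM. All treated libraries lay below the unstimulated ones, and those of 21h10 at 1 nM stood apart from the other treated ones. The log2 fold change against unstimulated cells, given here and throughout with its standard error (SE), was -1.64 ± 0.06 under mIL-21 at 100 pM, a 3.11-fold fall (edgeR adjusted p = 4.27e-14). With 21h10 at 1 nM it was -0.49 ± 0.06 (edgeR adjusted p = 2.66e-07).

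Hsp90b1 followed the same order, at 1345 and 1285 CPM in unstimulated cells, 621 and 627 under mIL-21 and 778 and 791 under 21h10 at 100 pM, and 755 and 714 under mIL-21 and 1073 and 1222 under 21h10 at 1 nM. It was lowest under mIL-21 at 100 pM, at -1.08 ± 0.06 on the log2 scale, and closest to unstimulated cells under 21h10 at 1 nM, at -0.20 ± 0.06 (edgeR adjusted p = 0.00411). This last call was lost without the first unstimulated library, without the first library of 21h10 at 1 nM, and with the compared groups fitted alone. Reads of Hsp90b1 may include those of 1810014B01Rik on the other strand, which overlaps 10.3% of its exonic bases. Manf, a secreted ER stress protein, had 163 and 155 CPM in unstimulated cells, 73.3 and 75.5 under mIL-21 and 86.1 and 78.8 under 21h10 at 100 pM, and 76.1 and 81.9 under mIL-21 and 115 and 119 under 21h10 at 1 nM. Its 21h10 1 nM libraries again lay between the unstimulated and the other treated ones.

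Creld2, an ER stress-inducible protein, did not share this intermediate level. It was at 52.4 and 52.0 CPM in unstimulated cells and between 18.6 and 22.6 CPM in all treated libraries, with log2 fold changes of -1.44, -1.37, -1.33 and -1.27 for mIL-21 and 21h10 at 100 pM and then at 1 nM. Hyou1, a nucleotide exchange factor of BiP, changed by -1.44, -1.49, -1.48 and -1.09 in the same order. Dnajb11, a cochaperone of BiP, changed by -1.27, -1.10, -1.19 and -0.77. In both genes 21h10 at 1 nM was the group nearest to unstimulated cells. Sdf2l1, which works with Dnajb11, changed by -1.07, -0.84, -0.83 and -0.18, the last of which was lost without either unstimulated library, without the second library of 21h10 at 1 nM, with DESeq2 and with the compared groups alone. Dnajc3, a cochaperone of BiP, was lowest under 21h10 at 1 nM, at -0.37, -0.42, -0.49 and -0.60. Dnajb9, a BiP cochaperone that restrains IRE1α, was not called under mIL-21 at 100 pM (-0.07) and was lower in the other 3 groups, most under 21h10 at 1 nM (-0.40 ± 0.09). Its call under 21h10 at 100 pM (-0.20) was lost with DESeq2, with limma and on leaving out any 1 of 5 libraries, and that under mIL-21 at 1 nM without the first unstimulated library.

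Of the lectin chaperones and disulfide isomerases, Calr, Canx, Pdia3, Pdia4 and Pdia6 fell in all 4 groups and P4hb rose in all 4. Calr, the calcium-binding lectin calreticulin, had 1042 and 1015 CPM in unstimulated cells, 419.7 and 425 under mIL-21 and 452 and 472 under 21h10 at 100 pM, and 428 and 446 under mIL-21 and 614 and 632 under 21h10 at 1 nM. Its log2 fold change was -1.28 ± 0.05 under mIL-21 at 100 pM (edgeR adjusted p = 6.30e-14) and -0.72 ± 0.05 under 21h10 at 1 nM (edgeR adjusted p = 9.36e-11). Pdia3, the oxidoreductase that pairs with both lectins, kept a log2 change between -1.13 and -0.94 in all 4 groups. Canx, the membrane-bound lectin, ranged from -1.06 to -0.55, Pdia4 from -0.70 to -0.31, and Pdia6 from -1.11 to -0.28. The lowest value of each came under mIL-21 at 100 pM and the highest under 21h10 at 1 nM.

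P4hb encodes the archetypal protein disulfide isomerase, which is also a subunit of collagen prolyl 4-hydroxylase. Its levels were 549 and 548 CPM in unstimulated cells, 747 and 717 under mIL-21 and 888 and 862 under 21h10 at 100 pM, and 819 and 838 under mIL-21 and 896 and 900.4 under 21h10 at 1 nM. Every treated library lay above the unstimulated ones, with a log2 fold change of 0.42 ± 0.04 under mIL-21 at 100 pM and 0.71 ± 0.04 under 21h10 at 1 nM (edgeR adjusted p = 8.06e-11).

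**Figure D2:**
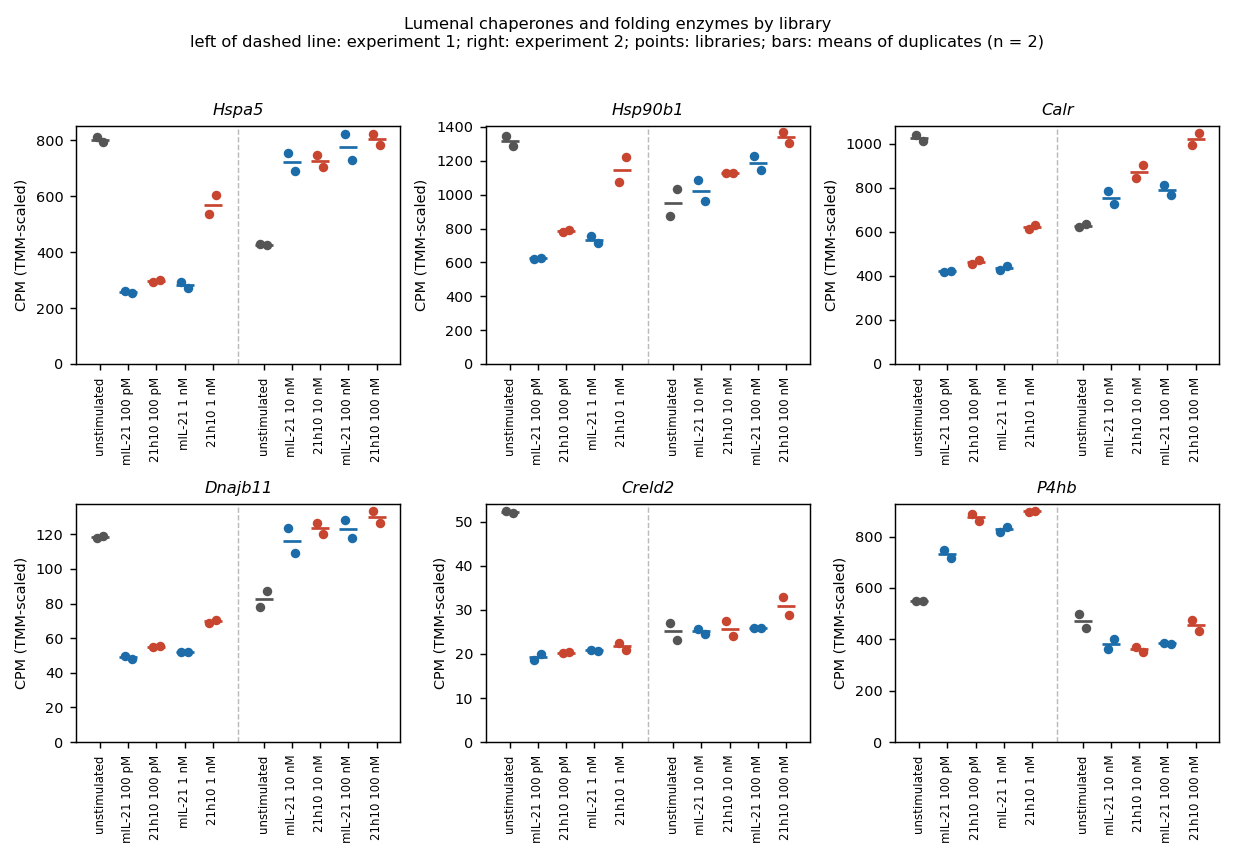
TMM-scaled CPM (vertical axes, starting at 0) of 6 lumenal chaperones and folding enzymes in every library, in experiment 1 (left of the dashed line) and experiment 2 (right), with a bar at the mean of each pair of duplicates and grey, blue and red for unstimulated cells, mIL-21 and 21h10. Hspa5, Hsp90b1, Calr, Dnajb11 and Creld2 lie below their unstimulated level in experiment 1, P4hb lies above it, and in experiment 2 Hspa5, Calr and Dnajb11 lie above it.

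Of the sensor genes, Atf6 and Ern1 rose in all 4 groups. Atf6 had 35.4 and 36.0 CPM in unstimulated cells, 64.4 and 64.3 under mIL-21 at 100 pM, 113 and 115 under 21h10 at 100 pM, 122 and 116 under mIL-21 at 1 nM, and 215 and 227 under 21h10 at 1 nM. No groups overlapped, and the ones next to each other were mIL-21 at 1 nM and 21h10 at the lower dose. The log2 fold change rose from 0.85 ± 0.05 under mIL-21 at 100 pM to 2.63 ± 0.05 under 21h10 at 1 nM, a 6.19-fold rise (edgeR adjusted p = 9.02e-18) and the largest among the 34 members. Atf6 lies on chr1:170704457-170868585, - strand (NM_001081304). Ern1 was higher in all 4 groups, by 0.39 to 0.64 on the log2 scale, at a low level of 4.83 and 4.997 CPM in unstimulated cells and 7.27 and 7.97 under 21h10 at 1 nM.

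Xbp1, whose mRNA is the substrate of IRE1α, had 94.1 and 94.2 CPM in unstimulated cells, 85.0 and 79.2 under mIL-21 at 100 pM, 98.0 and 93.4 under 21h10 at 100 pM, 104 and 103 under mIL-21 at 1 nM, and 177 and 166 under 21h10 at 1 nM. It was lower under mIL-21 at 100 pM, at -0.20 ± 0.05 on the log2 scale (edgeR adjusted p = 0.0022), and higher under 21h10 at 1 nM, at 0.87 ± 0.05 (edgeR adjusted p = 2.79e-11). It was called higher under mIL-21 at 1 nM too (0.13 ± 0.05), and was not called under 21h10 at 100 pM. The lower call at 100 pM was lost with limma, with library sizes from the mapped reads and without the second library of mIL-21 at 100 pM. The call at 1 nM of mIL-21 was lost with these scalings, with no filter on low counts and without either unstimulated library. The 2 Xbp1 transcripts in the tables differ in length by 26 bases and by at most 10 reads in any library, where Xbp1 had at least 2389 reads. The spliced and unspliced forms therefore cannot be told apart here, and these values say nothing of Xbp1 splicing.

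**Figure D3:**
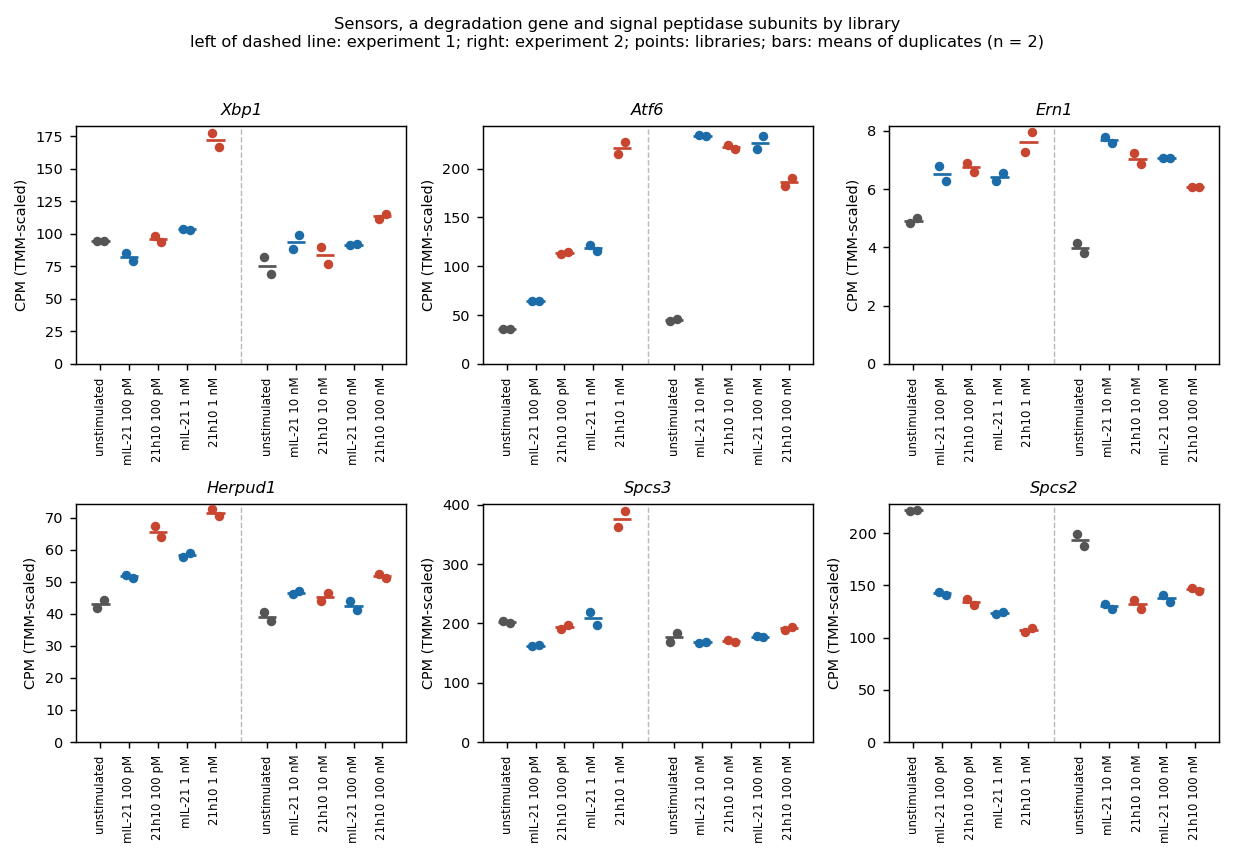
TMM-scaled CPM (vertical axes, starting at 0) of Xbp1, Atf6, Ern1, Herpud1, Spcs3 and Spcs2 in every library, drawn with experiment 1 left of the dashed line and experiment 2 right of it, bars at the mean of each pair of duplicates, and grey, blue and red for unstimulated cells, mIL-21 and 21h10. Atf6 rises in both experiments, Spcs2 falls in both, and Xbp1 and Spcs3 stand highest under 21h10 at 1 nM.

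Genes of ER-associated degradation split in direction. Herpud1, a membrane adaptor of the degradation complex, rose in all 4 groups, from 41.9 and 44.4 CPM in unstimulated cells to 52.3 and 51.1 under mIL-21 and 67.3 and 63.8 under 21h10 at 100 pM and 57.6 and 59.1 under mIL-21 and 72.6 and 70.5 under 21h10 at 1 nM. Its log2 fold change under 21h10 at 1 nM was 0.73 ± 0.05 (edgeR adjusted p = 5.19e-10). Edem2, a mannosidase that marks misfolded glycoproteins, also rose in all 4, from 59.4 and 59.1 CPM to 84.1 and 75.3 under 21h10 at 1 nM (0.43 ± 0.06 on the log2 scale). Syvn1, the ubiquitin ligase HRD1, fell in all 4, from 28.5 and 28.0 CPM to 21.9 and 21.4, 18.7 and 21.1, 19.9 and 20.1 and 19.1 and 18.9, in the same order of groups, and reached -0.58 ± 0.07 under 21h10 at 1 nM. Derl2, a derlin of the degradation channel, fell in all 4, from -0.41 under mIL-21 at 100 pM to -0.26 under mIL-21 at 1 nM.

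Sel1l, the partner of Syvn1, was lower under mIL-21 at 100 pM (-0.30 ± 0.05) and higher under 21h10 at 1 nM (0.14 ± 0.05). Derl1 was likewise lower and higher in these groups, at -0.15 ± 0.05 and 0.26 ± 0.05, with 20.5% of its transcript close to the copy Gm35638. The higher call of Sel1l and the lower call of Derl1 were lost with limma, with library sizes from the mapped reads and without the second unstimulated library or the second treated one. Edem1 was at 245 and 244 CPM in unstimulated cells and between 228 and 259 CPM in the treated libraries, and was called in 1 group only, mIL-21 at 100 pM, at -0.10 ± 0.04 (edgeR adjusted p = 0.0493), a call lost on leaving out any 1 of 7 libraries.

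Among the 9 genes of secretory entry, Sec61a1, Ssr2, Spcs1 and Spcs2 fell in all 4 groups and Sec61b, the small subunit of the channel, was called in none. Sec61b had 102 and 105 CPM in unstimulated cells and between 91.9 and 100.7 CPM in treated ones. Spcs2, a subunit of signal peptidase, had 221 and 222 CPM in unstimulated cells, 144 and 140.6 under mIL-21 and 137.4 and 131 under 21h10 at 100 pM, and 122 and 124 under mIL-21 and 105 and 109 under 21h10 at 1 nM. Like Dnajc3 and Dnajb9, and unlike the other 7 lumenal folding genes, it was lowest under 21h10 at 1 nM, at -1.05 ± 0.05 (edgeR adjusted p = 4.58e-13). A pseudogene, Spcs2-ps, matches 23.5% of its transcript. Spcs3, another subunit of the same enzyme, had 203.8 and 201.5 CPM in unstimulated cells, 162 and 163, 191 and 198 and 219 and 198 in the first 3 treated groups, and 362 and 391 under 21h10 at 1 nM. It was called lower under mIL-21 at 100 pM, at -0.32 ± 0.05, and higher in the last group alone, by 0.89 ± 0.05 on the log2 scale (edgeR adjusted p = 2.96e-11).

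Spcs1, a further signal peptidase subunit, fell in all 4 groups, at -0.75 under mIL-21 at 100 pM and -0.68 under 21h10 at 1 nM, with 16.3% of its exonic bases shared with Glt8d1 on the other strand. Sec11c, a catalytic subunit, changed by -0.16, -0.15 and -0.14 under mIL-21 at 100 pM, mIL-21 at 1 nM and 21h10 at 1 nM, and was not called under 21h10 at 100 pM (-0.07). Each of these 3 calls was lost without the first unstimulated library. Sec61a1, the pore of the channel, changed by -0.43 to -0.25, with 8.16% of its exonic bases shared with Gm44170. The subunits of the translocon-associated protein complex diverged. Ssr2 was lower in all 4 groups, at -0.78 under mIL-21 at 100 pM and -0.31 under 21h10 at 1 nM, with 12.8% of its exonic bases shared with Gm10704. Ssr1 had 312 and 304 CPM in unstimulated cells, 229 and 233 under mIL-21 at 100 pM and 373 and 396 under 21h10 at 1 nM. Ssr3 had 353 and 344, 317 and 322 and 456 and 486 CPM in the same groups. Both were called higher under 21h10 at 1 nM and lower under mIL-21 at 100 pM. For Ssr3 the lower call, at -0.12, was lost on leaving out any 1 of the 4 libraries compared, with limma and with library sizes from the mapped reads, where it came to as little as -0.05.

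21h10 gave higher levels than mIL-21 at the same dose for most members in experiment 1. At 100 pM, 20 members were higher under 21h10 and 0 lower, against 19.6% and 19.0% of all genes tested, with a median log2 difference of 0.15. At 1 nM, 21 were higher and 1 was lower, against 19.6% and 18.1% of all genes, with a median of 0.24. The difference at 1 nM was widest for Hspa5, at 1.01 ± 0.06 on the log2 scale (edgeR adjusted p = 3.45e-10), followed by Atf6 at 0.90 ± 0.05, Spcs3 at 0.85 ± 0.05 and Xbp1 at 0.73 ± 0.05. All 6 lectin chaperones and disulfide isomerases were higher with 21h10, from 0.12 for P4hb to 0.59 for Pdia6. The call of P4hb was lost on leaving out any 1 of 9 of the 10 libraries and under 5 other settings, and that of Pdia3 (0.19) with limma, with library sizes from the mapped reads, with the compared groups alone and without the second library of 21h10 at 1 nM. The member that was lower was Spcs2, at -0.20 ± 0.05, a call lost with the compared groups alone. At 100 pM, Atf6 differed by 0.82 ± 0.05, Ssr3 by 0.35 ± 0.05 and Herpud1 by 0.34 ± 0.05, whereas Hspa5 differed by 0.20 ± 0.06 (edgeR adjusted p = 0.0101).

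The count at 100 pM depended on scaling and on 1 library. With library sizes taken from the mapped reads, the median of all genes at 100 pM moved to -0.11 and the members came to 9 higher and 3 lower, and among all called genes the share that was higher moved from 50.9% to 28.4%. Without the second library of mIL-21 at 100 pM, 11 members were higher. Atf6, Derl1, Herpud1, Hsp90b1, P4hb, Pdia6, Ssr1 and Ssr3 were higher at 100 pM under every scaling. At 1 nM, 18 members were higher and Spcs2 lower under every scaling, while the share of all called genes that was higher ranged from 41.1% to 61.2%.

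**Figure D4:**
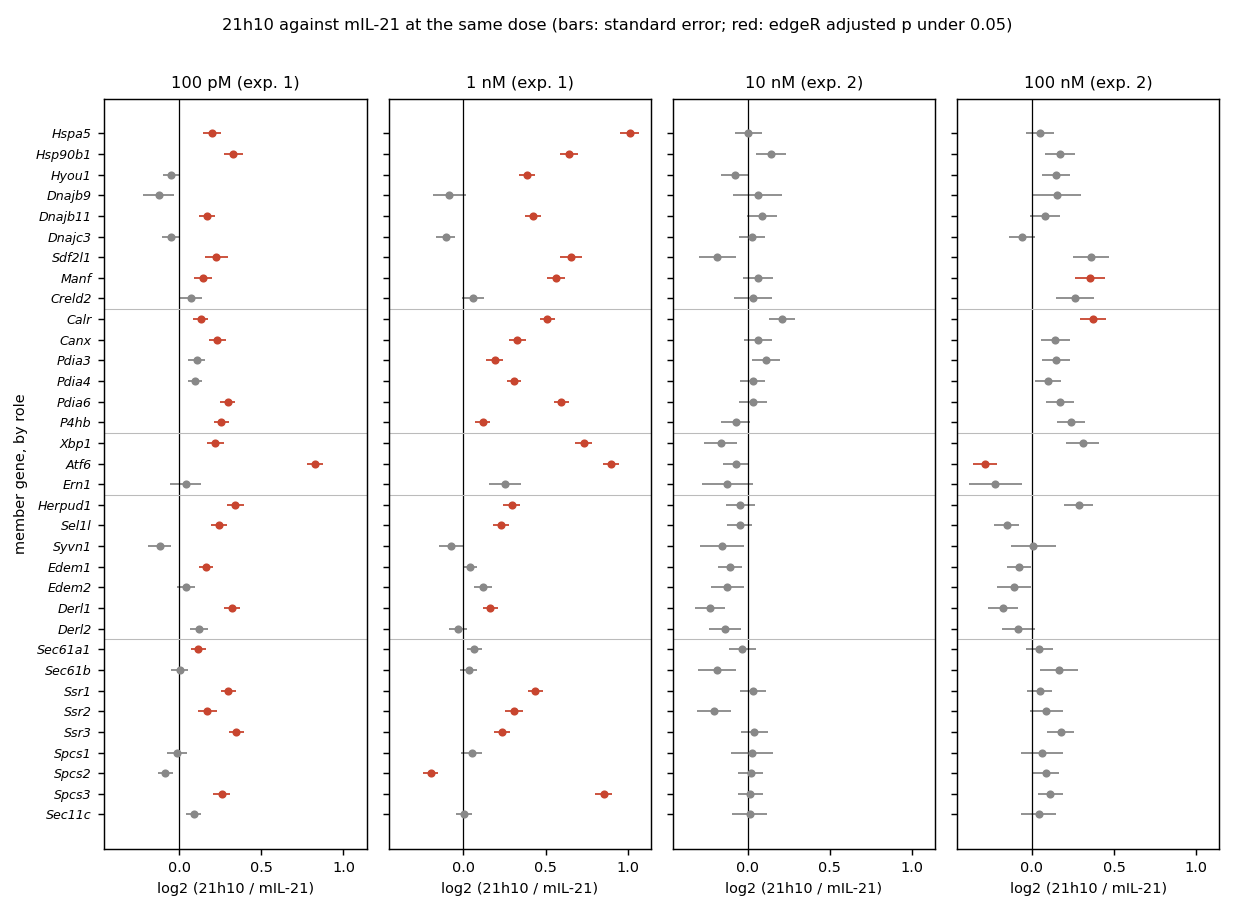
Log2 difference between 21h10 and mIL-21 (horizontal axes) for each of the 34 members (rows, by role) at each of the 4 doses (panels, lowest dose first), with bars of 1 standard error and red points where the edgeR adjusted p was under 0.05. There are 20 red points at 100 pM and 22 at 1 nM, of which Spcs2 is the one below 0, none at 10 nM and 3 at 100 nM.

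A 10 times higher dose of mIL-21, 1 nM, was set against 100 pM of 21h10, and no member's difference passed the test. In this comparison 0 members were higher and 0 lower by edgeR, 3 of 34 had an unadjusted p under 0.05, and DESeq2 and limma also called 0. Of all genes, 0.157% were higher and 0.58% lower. For Hspa5 the difference was 0.07 ± 0.06, with a 95% interval of -0.04 to 0.18, and for Atf6 it was -0.06 ± 0.05, with an interval of -0.15 to 0.04. The widest difference was 0.17 ± 0.05 for Herpud1.

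Most members that changed with dose within a cytokine rose. From 100 pM to 1 nM of mIL-21, 16 members rose and 1, Spcs2, fell, against 17.9% and 16.6% of all genes. With library sizes from the mapped reads, 5 rose and 5 fell, the median of all genes moved to -0.12, and the share of all called genes that rose moved from 51.9% to 26.1%. In all, 11 members were called without the first library of mIL-21 at 100 pM and 10 without the second. Atf6, Spcs3, Ssr1, Ssr3 and Xbp1 rose under every scaling. From 100 pM to 1 nM of 21h10, 18 rose and 2 fell, Spcs2 and Dnajc3, against 20.1% and 19.1% of all genes. With library sizes from the mapped reads the members came to 16 and 3, and the share of all called genes that rose moved from 51.4% to 38.0%. Hspa5 rose by 0.95 ± 0.06 under 21h10 and differed by 0.13 ± 0.06 with mIL-21 (edgeR adjusted p = 0.0808).

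The effect of dose on the difference between the cytokines was tested as an interaction. For 11 members the excess of 21h10 over mIL-21 was larger at 1 nM than at 100 pM, and for 0 it was smaller, against 8.34% and 10.0% of all genes. These were Calr, Dnajb11, Hsp90b1, Hspa5, Hyou1, Manf, Pdia4, Pdia6, Sdf2l1, Spcs3 and Xbp1, and all 11 were called under every scaling. Single libraries decided the calls of Dnajb11 (3 libraries), Pdia4 (5 libraries) and Hsp90b1, which was lost without the second library of mIL-21 at 100 pM. Under these scalings the share of all called genes above 0 ranged from 45.4% to 63.2%. Hspa5 had the largest interaction, at 0.81 ± 0.08 on the log2 scale (edgeR adjusted p = 2.39e-06), ahead of Spcs3 at 0.59 ± 0.07 and Xbp1 at 0.51 ± 0.07.

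In experiment 2, with 10 nM and 100 nM of cytokine, Hspa5, Dnajb9, Dnajb11, Calr, Atf6, Ern1 and Ssr1 were higher than in unstimulated cells in all 4 treated groups, and Spcs2 was lower in all 4. With mIL-21 at 10 nM, 10 members were higher and 3 lower, against 22.5% and 23.7% of all genes. With 21h10 at 10 nM the members came to 11 and 5, against 25.2% and 24.9%. With mIL-21 at 100 nM they came to 14 and 4, against 22.5% and 23.7%. With 21h10 at 100 nM they came to 17 and 2, against 25.0% and 25.8%. With this TMM scaling the share of members called lower was below that of genes at large in all 4 comparisons. The share called higher was above it, by less at 10 nM (29.4% and 32.4%) than at 100 nM (41.2% and 50.0%). With the compared groups fitted alone, 20.6% of the members were higher under mIL-21 at 10 nM against 20.8% of all genes, and 26.5% against 23.0% under 21h10 at 10 nM. The median log2 fold changes were 0.13, 0.10, 0.13 and 0.22.

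These counts rest on the scaling of the libraries. With library sizes from the mapped reads, the median of all genes moved to -0.19, -0.27, -0.23 and -0.32 in these 4 comparisons, and the members' median to -0.05, -0.17, -0.09 and -0.09, above that of all genes each time. Among all called genes the share that was higher moved from between 48.7% and 50.3% to between 23.3% and 29.8%. The members then came to 5 higher and 7 lower, 6 and 13, 5 and 9, and 7 and 9. Of the calls reported here, 5 of 13, 5 of 16, 9 of 18 and 10 of 19 were lost. All higher calls of Hsp90b1, Sdf2l1, Creld2, Pdia3, Pdia4, Pdia6, Herpud1, Sel1l, Ssr1 and Ssr3 in experiment 2 were among them. Hspa5, Atf6, Dnajb9 and Dnajb11 were higher and Spcs2 lower in all 4 comparisons under every scaling. The lower calls, 3, 5, 4 and 2 in the same order of comparisons, held under every scaling. The mapped-read and limma fits moved the median of all genes down in these comparisons, a shift that favors lower calls. They were therefore no strict check of the lower calls. Under every setting, with single libraries left out included, 1, 2, 1 and 2 of the lower calls held. Without the second library of 21h10 at 10 nM, that comparison called 10 members in place of 16, and without either library of mIL-21 at 100 nM, that comparison called 10 in place of 18.

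Hspa5 had 429 and 425 CPM in the unstimulated cells of experiment 2, 755 and 689 under mIL-21 and 746 and 704 under 21h10 at 10 nM, and 822 and 728 under mIL-21 and 823 and 782 under 21h10 at 100 nM. All treated libraries lay above both unstimulated ones. The groups at 10 nM overlapped each other and mIL-21 at 100 nM. Those of 21h10 at 100 nM lay above both groups at 10 nM and overlapped mIL-21 at 100 nM. The log2 fold change was between 0.76 ± 0.08 (edgeR adjusted p = 2.12e-06) and 0.91 ± 0.08 (edgeR adjusted p = 3.05e-07). Dnajb11 ranged from 0.49 to 0.65 and Dnajb9 from 0.62 to 0.85. Hsp90b1 had 872 and 1032 CPM in unstimulated cells, 1087 and 959.9 under mIL-21 and 1129 and 1130.2 under 21h10 at 10 nM, and 1228 and 1144 under mIL-21 and 1369 and 1306 under 21h10 at 100 nM. Its unstimulated libraries overlapped those of mIL-21 at 10 nM, and it was called higher in the other 3 groups, most under 21h10 at 100 nM (0.49 ± 0.09). With 21h10 at 10 nM its log2 fold change of 0.25 turned to -0.02 with library sizes from the mapped reads.

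Manf had 92.9 and 90.5 CPM in unstimulated cells, 113 and 101 under mIL-21 and 114 and 109.5 under 21h10 at 10 nM, and 111 and 109 under mIL-21 and 151 and 131 under 21h10 at 100 nM. It was called higher in 3 groups, most under 21h10 at 100 nM (0.62 ± 0.09). Sdf2l1 and Creld2 were called higher under 21h10 at 100 nM only, at 0.29 ± 0.11 and 0.30 ± 0.11. The call of Sdf2l1 was lost on leaving out any 1 of 9 of the 10 libraries and that of Creld2 on leaving out any 1 of 8, and with library sizes from the mapped reads they came to -0.02 and -0.0017. Hyou1 and Dnajc3 were called in no group, with log2 fold changes from -0.10 to 0.09 and from 0.12 to 0.18.

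Calr had 620.1 and 637 CPM in unstimulated cells, 785 and 725 under mIL-21 and 843 and 905 under 21h10 at 10 nM, and 812 and 767 under mIL-21 and 995 and 1051 under 21h10 at 100 nM. With 21h10 at 100 nM it was higher by 0.70 ± 0.08 (edgeR adjusted p = 2.87e-06), and its libraries lay above those of every other group of experiment 2. Calr was called higher under mIL-21 too, by 0.27 at 10 nM and 0.33 at 100 nM, but not under every scaling. Its calls under 21h10 held under every scaling. Pdia3 was called higher in 3 groups and Pdia4 and Pdia6 in 2, each most under 21h10 at 100 nM, at 0.43, 0.31 and 0.43. These 3 values came to as little as 0.13, 0.0082 and 0.12 under other scalings, and the call of Pdia4 under mIL-21 at 100 nM was lost on leaving out any 1 of 7 libraries. Canx was called in none, from -0.16 to 0.09. P4hb had 499 and 446 CPM in unstimulated cells, 360.4 and 399.5 under mIL-21 and 372 and 350.3 under 21h10 at 10 nM, and 387 and 383 under mIL-21 and 477 and 433 under 21h10 at 100 nM. It was lower in 3 groups, at -0.39 ± 0.09 under 21h10 at 10 nM (edgeR adjusted p = 0.00157), but not under 21h10 at 100 nM (-0.05 ± 0.09).

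Atf6 was again the member that rose most, from 44.3 and 46.4 CPM in unstimulated cells to 234 and 233 under mIL-21 and 224 and 220.4 under 21h10 at 10 nM, and 220.0 and 233 under mIL-21 and 182 and 190.4 under 21h10 at 100 nM. The libraries of 21h10 at 100 nM were the lowest of the treated ones, with a log2 fold change of 2.04 ± 0.08 against 2.37 ± 0.08 under mIL-21 at 10 nM. Ern1 rose by between 0.61 and 0.95. Xbp1 had 81.8 and 69.3 CPM in unstimulated cells, 88.0 and 98.7 under mIL-21 and 89.8 and 77.1 under 21h10 at 10 nM, and 91.1 and 91.9 under mIL-21 and 111 and 115 under 21h10 at 100 nM. It was called higher in 3 groups, most under 21h10 at 100 nM (0.58 ± 0.10, edgeR adjusted p = 0.000183), and the unstimulated libraries overlapped those of 21h10 at 10 nM. None of these 3 calls of Xbp1 held under every scaling.

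Of the degradation genes, Edem2 was lower in 3 groups, from 66.4 and 54.8 CPM in unstimulated cells to 51.1 and 46.0 under 21h10 at 10 nM, 48.8 and 49.7 under mIL-21 at 100 nM and 45.8 and 45.7 under 21h10 at 100 nM (-0.41 ± 0.10). It was not called under mIL-21 at 10 nM, at 51.3 and 54.5 CPM. Herpud1 had 40.5 and 37.6 CPM in unstimulated cells and 52.5 and 51.3 under 21h10 at 100 nM, and was called higher there and under mIL-21 at 10 nM, at 0.41 ± 0.09 and 0.25 ± 0.09. Sel1l was higher in 3 groups, by at most 0.29 on the log2 scale. Its value under 21h10 at 10 nM turned from 0.24 to -0.03 with library sizes from the mapped reads. Syvn1, Edem1, Derl1 and Derl2 were called in none. Syvn1 had 30.7 and 24.1 CPM in unstimulated cells and between 27.6 and 37.0 CPM in treated ones, and Edem1 had 283 and 290.0 in unstimulated and between 286 and 317 CPM in treated cells.

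Of the secretory entry genes, Spcs2 fell from 199 and 187 CPM in unstimulated cells to 132 and 128 under mIL-21 and 136.1 and 127 under 21h10 at 10 nM and 140.8 and 134.4 under mIL-21 and 148 and 144 under 21h10 at 100 nM. Its log2 fold change was between -0.57 ± 0.08 (edgeR adjusted p = 1.96e-05) and -0.40 ± 0.08. Sec61b had 82.8 and 64.9 CPM in unstimulated cells, a spread wider than in experiment 1, and was called lower in 2 groups, at -0.45 ± 0.12 under 21h10 at 10 nM and -0.40 ± 0.12 under mIL-21 at 100 nM. Sec11c was called lower with either cytokine at 10 nM, at -0.31 and -0.29. Ssr1 rose from 257 and 275 CPM to 346 and 352 under 21h10 at 100 nM (0.39 ± 0.08), and Ssr3 was called higher in that group only, at 0.30 ± 0.08. Spcs3 had 169 and 185 CPM in unstimulated cells and 189 and 194 under 21h10 at 100 nM, and neither it nor Sec61a1, Ssr2 or Spcs1 was called.

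Between the cytokines, few members were called in experiment 2, where duplicates differed more than in experiment 1. At 10 nM, 0 members were higher and 0 lower by edgeR and by DESeq2, with 2 members at an unadjusted p under 0.05, against 0.00726% and 0.0% of all genes. For Hspa5 the 95% interval of the difference was -0.16 to 0.17 on the log2 scale, and for Atf6 it was -0.22 to 0.07. At 100 nM, Manf and Calr were higher with 21h10, by 0.35 ± 0.09 (edgeR adjusted p = 0.0215) and 0.37 ± 0.08 (edgeR adjusted p = 0.00757), and Atf6 was lower, at -0.28 ± 0.08 (edgeR adjusted p = 0.0281). Of all genes, 4.02% were higher and 4.52% lower. With library sizes from the mapped reads, 1 member was higher and 1 lower, and the share of all called genes that was higher moved from 47.1% to 30.1%. The count of 3 rests on single libraries. It was 0 without the second library of mIL-21 at 100 nM, 1 without the first or without either library of 21h10 at 100 nM, and 7 without either unstimulated library. From 10 nM to 100 nM of 21h10, Manf, P4hb and Xbp1 rose, by 0.33 ± 0.09, 0.33 ± 0.09 and 0.44 ± 0.10, and 0 members fell, against 1.88% and 3.45% of all genes. None of the 3 was called under every scaling, and with library sizes from the mapped reads 0 rose and 1 fell. The count was 0 without either library of 21h10 at 100 nM or the second at 10 nM, 1 without the first at 10 nM or either library of mIL-21 at 100 nM, and 8 without either unstimulated library. The same step of mIL-21 raised 0 members and lowered 0 by edgeR and by DESeq2, with 1 member at an unadjusted p under 0.05, and 0.0% of all genes were higher and 0.0% lower. The dependence of the cytokine difference on dose was called for 0 members by edgeR and by DESeq2, with 5 at an unadjusted p under 0.05, against 0.457% higher and 0.465% lower of all genes. It was called for 2 members when either unstimulated library was left out.

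The response to cytokine differed between the experiments for most members, as tested in a fit of all 20 libraries that compared the mean of the 4 treated groups with the unstimulated cells of each experiment. 23 members had a higher response in experiment 2 and 5 a lower one, against 31.2% and 33.5% of all genes, with a median difference of 0.51 on the log2 scale. All 9 lumenal folding genes were among the higher ones. Hspa5 had a mean response of -1.27 in experiment 1 and 0.82 in experiment 2, and the difference in the joint fit was 2.03 ± 0.09 (edgeR adjusted p = 2.09e-14). Dnajb11 had -1.08 and 0.58, and Calr -1.10 and 0.44. These 3 genes were lower in all 4 groups of experiment 1 and higher in all 4 of experiment 2. The calls of Hspa5 and Dnajb11 held under every scaling. In experiment 2 those of Calr did so under 21h10 only. P4hb had a mean response above 0 in experiment 1 and below 0 in experiment 2, at 0.60 and -0.26 (difference -0.92 ± 0.08), as did Edem2, at 0.29 and -0.31. Atf6 and Ern1 were higher in all 4 groups of both experiments and Spcs2 was lower in all 4 of both.

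Each dose was given in 1 experiment only, with unstimulated cells of its own, so dose and experiment cannot be told apart. The unstimulated cells of experiment 1 had the higher RPKM for 29 of the 34 members, with a median ratio of 1.25 between the experiments, a difference that was not tested. The ratio of all genes was not computed, so no background stands beside these numbers. RPKM is scaled to mapped reads, and the share of mapped reads that lay on genes differed between the unstimulated libraries. The ratio was over 1.5 for 10 members, among them Hspa5 at 1.92, Hyou1 at 2.10, Creld2 at 2.11 and Pdia6 at 2.19. With library sizes from the mapped reads the joint fit called 20 members higher and 9 lower, and the median of all genes moved to -0.19.

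**Figure D5:**
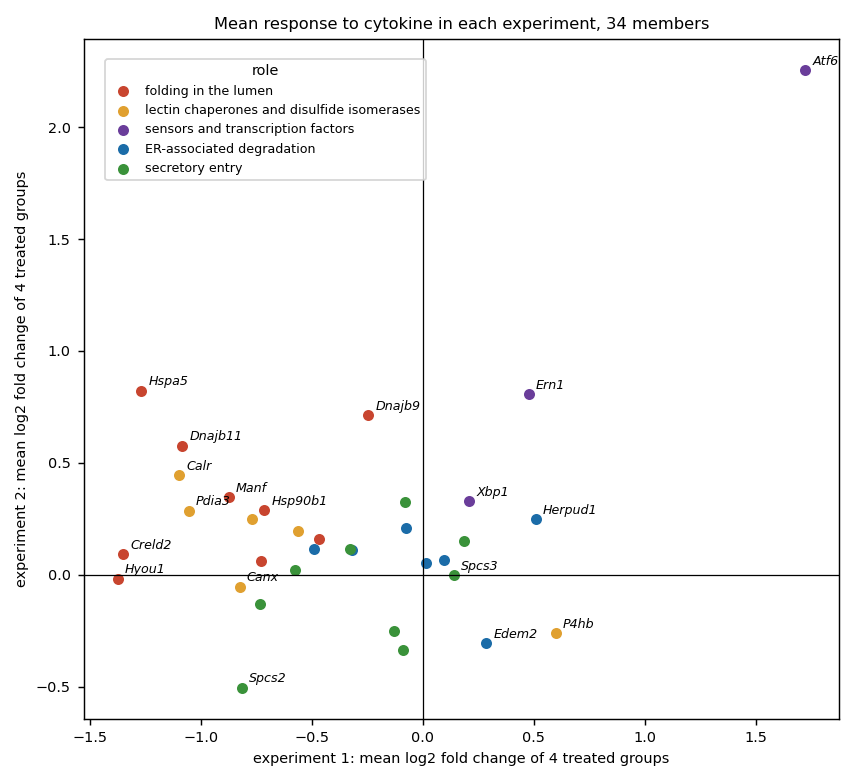
Mean log2 fold change of the 4 treated groups against unstimulated cells in experiment 1 (horizontal axis) and experiment 2 (vertical axis) for the 34 members, colored by role. Of the 34 points, 18 lie left of 0 on the horizontal axis and above 0 on the vertical one, with Hspa5 at -1.27 and 0.82, and Atf6 stands alone at the upper right at 1.72 and 2.25.

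The 8 members with an ERSE in the promoter window, Hspa5, Hsp90b1, Dnajc3, Creld2, Calr, Canx, Pdia6 and Syvn1, were all lower in all 4 treated groups of experiment 1. Of the 18 members with a window but no ERSE, 7 were lower in all 4 groups and 4 were higher in all 4. The division goes together with role, as all of the 8 except Syvn1 are chaperones or folding enzymes. Of such genes with a window but no ERSE, Dnajb11, Sdf2l1, Pdia3 and Pdia4 were lower in all 4 too. Dnajb9 was lower in 3, and P4hb was higher in all 4. Hyou1 and Manf, without a window, were also lower in all 4. With ERSE-II, Herpud1 was higher and Dnajb11 lower in all 4. The part of the element apart from role was not tested. The share of all genes lower or higher in all 4 groups was not counted. In the single comparisons of experiment 1, 39.4% to 42.1% of all genes were lower and 38.3% to 40.2% higher. In experiment 2, 2 of the 8 were higher under mIL-21 at 10 nM, 3 under 21h10 at 10 nM, 4 under mIL-21 at 100 nM and 5 under 21h10 at 100 nM, and 0 were lower, all with TMM scaling. Of all genes, 22.5%, 25.2%, 22.5% and 25.0% were higher in this order, and 23.7%, 24.9%, 23.7% and 25.8% lower. Of the 29 other genes with an ERSE, 11 were matched by symbol and tested. Of these 11, 4 were higher and 3 lower under mIL-21 at 100 pM and 2 were higher and 6 lower under 21h10 at 1 nM. This division was made with the members' responses known and is a description.

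Other genes of the same pathways, 97 on a list of which 96 were tested, were counted for comparison. With mIL-21 at 100 pM, 23 were higher (24.0%) and 58 lower (60.4%), against 38.3% and 39.4% of all genes. With 21h10 at 1 nM, 39 were higher (40.6%) and 41 lower (42.7%), near the 38.3% and 42.1% of all genes. Between the cytokines, 43 were higher under 21h10 and 7 lower at 100 pM, and 42 and 5 at 1 nM, against 19.6% higher of all genes at both doses and 19.0% and 18.1% lower. With library sizes from the mapped reads fewer were higher and more were lower, at 19 and 11 at 100 pM and 24 and 7 at 1 nM. Of all 13974 genes tested, 1616 were then higher and 4072 lower at 100 pM, and 2038 and 2918 at 1 nM. Of 26 genes of translocation, signal recognition and N-glycosylation, 20 were lower and 1 higher under mIL-21 at 100 pM. At both doses of experiment 1, 16 of them were higher with 21h10 than with mIL-21 and 0 were lower, and with library sizes from the mapped reads 5 were higher at 100 pM and 9 at 1 nM. Srp19, a protein of the signal recognition particle, was at -1.16 and Rpn1, a subunit of oligosaccharyltransferase, at -0.90 under mIL-21 at 100 pM on the log2 scale. Sec13, a coat protein of COPII vesicles, was at -1.28, and Vcp, the ATPase that extracts proteins for degradation, at -1.07.

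Of 8 listed genes of the PERK and ATF4 arm, the branch of the response that slows translation, 6 were higher and 0 lower under 21h10 at 100 pM, mIL-21 at 1 nM and 21h10 at 1 nM alike, and 4 were higher and 4 lower under mIL-21 at 100 pM. The shares of all genes called higher in these comparisons were 40.2%, 39.9%, 38.3% and 38.3%. Ddit3, which encodes CHOP, was higher by 1.69, 2.99, 2.82 and 3.42 on the log2 scale for mIL-21 and 21h10 at 100 pM and then at 1 nM. It was also higher in all 4 groups of experiment 2, by 0.74 to 1.01, with its highest value under 21h10 at 100 nM (edgeR adjusted p = 5.05e-05). Trib3, a target of CHOP and ATF4, was higher by 0.86 to 2.57 in experiment 1, and was lower in all 4 groups of experiment 2, at -1.71 under 21h10 at 10 nM (edgeR adjusted p = 2.29e-06) and -0.82 at 100 nM. Ero1l, the oxidase that recharges disulfide isomerases and is also induced by hypoxia, was higher by 2.46 to 3.70 in experiment 1. In experiment 2 it was lower in 3 groups, at -0.81 under 21h10 at 10 nM (edgeR adjusted p = 4.64e-05). Stc2, a secreted glycoprotein induced by ER stress, was higher by 2.34 to 3.10 in experiment 1, and in experiment 2 it was called under 21h10 at 100 nM only (0.54). Creb3l1, an ER-bound transcription factor cleaved like ATF6, was higher by 1.37 to 1.69 in experiment 1 and lower in both mIL-21 groups of experiment 2 (-0.76 and -0.68). Kdelr3, a receptor that returns chaperones to the ER, was higher by 2.17 to 3.47 in experiment 1 and, in experiment 2, under mIL-21 at 100 nM only (1.71). Its reads were few, at 23 and 28 in the unstimulated libraries of experiment 1. In experiment 2 they were 12 and 6 in unstimulated cells and 22 and 27 under mIL-21 at 100 nM.

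Some listed genes fell in both experiments. Pdia5, a disulfide isomerase, had 539 and 275 reads in the unstimulated libraries of experiment 1 and 422 and 288 in those of experiment 2, and at most 87 reads in any treated library. Its log2 fold change was -1.60 under mIL-21 at 100 pM, between -3.15 and -3.49 in the other treated groups of experiment 1, and between -3.72 and -4.64 in experiment 2. Derl3, a derlin with at most 130 reads in a library, was lower at -1.81 under 21h10 at 1 nM and -3.99 under mIL-21 at 10 nM, and was not called under mIL-21 at 100 pM (0.12). In experiment 2, 30 of the 96 were higher (31.2%) and 14 lower (14.6%) under 21h10 at 100 nM, against 25.0% and 25.8% of all genes. Of the same genes, 10 were higher and 45 lower with library sizes from the mapped reads.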

How the data were processed

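RNA-seq libraries of mouse CD8+ T cells were analysed in 2 experiments of 5 groups each, with 2 libraries a group. The authors aligned the reads to mm10 and deposited, for every library, the count of reads on the exons of each RefSeq transcript and its RPKM, the count per kilobase of transcript scaled to the mapped reads. The submitters' processing notes name Bowtie2 2.2.6, TopHat2 2.0.11, SAMtools 0.1.8, bedtools 2.25.0 and edgeR. The counting tool and its strand setting are not given in the sources used here, so reads of overlapping genes on opposite strands may be mixed. No columns of other samples or of the authors' comparisons were present in the tables used.

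For each of the 23992 symbols among 31682 transcripts, the longest transcript was kept. Counts were tested with edgeR 4.0.16 (R 4.3.3; quasi-likelihood F test, TMM scaling, filterByExpr with a minimum count of 10 and a minimum total of 15), in 1 fit of 10 libraries per experiment with 13974 and 13772 genes, and p-values were adjusted by Benjamini and Hochberg over all genes tested, with a threshold of 0.05. Adjusted p-values printed for these duplicates come from that fit. Responses were compared between experiments in a fit of 20 libraries and 14530 genes. SE is the log2 fold change divided by the square root of F. CPM are TMM-scaled within each experiment, and RPKM are the deposited values. Total reads on genes, 27072917 to 94070730 a library, set the precision. The scripts were tested on simulated counts. Alternatives were DESeq2 1.42.0, limma 3.58.1 on log2(RPKM + 1) for genes at 1 RPKM or more in at least 2 libraries, no filter on low counts, library sizes from mapped reads, the compared groups alone, the most-read transcript, the replicate number as a block, and leaving out each library. Statements on every scaling refer to TMM, DESeq2, mapped-read and limma fits.

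The 34 members, their roles and the other gene lists were chosen with earlier results of these data known. Genes given in most detail were Hspa5 and Xbp1, the most abundant member of each role, the largest called rise and fall of each role in each experiment and the 3 largest called differences between the cytokines. Of the other pathway genes, the 2 with the largest called change against unstimulated cells were named per list. Creld2, Dnajb11 and further members named with values were added after their values were seen. Promoters were RefSeq windows on GRCm38.p6, overlaps were taken from the gene annotation of the same build (GENCODE release M21), and near copies were sought among its transcripts with BLAST 2.17.0 (at least 95% identity over 100 bases). Transcript positions are those of RefSeq on the same build.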

Additional observations from a re-analysis of the deposited data

Results flagged for a closer look

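The excess of 21h10 over mIL-21 differed between doses in experiment 1 for 11 members, all larger at 1 nM than at 100 pM in the test of the interaction (edgeR, adjusted over all genes). On the log2 scale the interaction was 0.81 for Hspa5, 0.59 for Spcs3, 0.51 for Xbp1, 0.42 for Manf, 0.38 for Calr and 0.31 for Hsp90b1. The background for such calls was 8.34% of all genes higher and 10.0% lower.

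The mean response to cytokine differed between the experiments for 28 members in the fit of 20 libraries. The response in experiment 2 was higher by 2.03 for Hspa5, 1.48 for Calr, 1.16 for Manf, 0.94 for Hsp90b1, 0.55 for Syvn1, 0.47 for Atf6, 0.35 for Ssr1 and 0.25 for Spcs2 on the log2 scale. The difference was -0.92 for P4hb, -0.65 for Edem2, -0.32 for Herpud1, -0.31 for Sec61b and -0.20 for Spcs3. Dose and experiment cannot be told apart in this comparison. No group held enough libraries for a test of single outlying samples.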

How the results depend on the processing

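Counts of members called in experiment 1 against unstimulated cells stayed within 1.5 times their reported value under all alternatives. Limma on log2(RPKM + 1) and library sizes from mapped reads gave 10 and 12 calls between 21h10 and mIL-21 at 100 pM (20 reported) and 10 each for the dose step of mIL-21 in experiment 1 (17 reported). In experiment 2, the compared groups alone gave 8 calls for mIL-21 at 10 nM against unstimulated cells (13 reported), 9 between the cytokines at 100 nM (3 reported), 11 for the dose step of 21h10 (3 reported) and 2 for the interaction (0 reported). Between the cytokines at 100 nM, DESeq2 gave 6, no filter on low counts 5 and limma 1. For the dose step of 21h10 there, DESeq2 gave 6, limma 0 and mapped-read sizes 1. Leaving out single libraries gave 11 to 22 calls between the cytokines at 100 pM, 10 to 22 for the dose step of mIL-21 in experiment 1, 10 to 16 for 21h10 at 10 nM and 10 to 18 for mIL-21 at 100 nM against unstimulated cells, 0 to 7 between the cytokines at 100 nM, 0 to 8 for the dose step of 21h10 in experiment 2 and 0 to 2 for its interaction. Of calls made, the direction turned with mapped-read sizes for Hsp90b1 and Sel1l (-0.032) with 21h10 at 10 nM, Pdia4 with mIL-21 at 100 nM (-0.0097) and Sdf2l1 (-0.016) and Creld2 (-0.0017) with 21h10 at 100 nM. Among the genes given in most detail, it turned in experiment 2 against unstimulated cells for Edem1 with 21h10 at 10 nM (-0.26 with limma, -0.27 with mapped-read sizes) and at 100 nM (-0.28 and -0.29), for Hsp90b1 with 21h10 at 10 nM (-0.019 and -0.021), and for Spcs3 with mIL-21 (-0.21 and -0.22) and with 21h10 (-0.18, limma) at 100 nM. Mapped-read sizes moved the median of all genes by up to 0.32 on the log2 scale there, in the direction of these changes.

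With the replicate number as a block, 32 members were called with 21h10 at 1 nM and 19 with 21h10 at 100 nM against unstimulated cells, 21 between the cytokines at 1 nM, 4 at 100 nM and 28 between the experiments, and no count moved by over 1.5 times. The correlation of deviations between same-numbered libraries was -0.0636 to 0.0302 over the 10 pairs of groups of experiment 1 and -0.172 to 0.235 (median 0.0395, with 3 of 10 over 0.1) in experiment 2. The labels do not say whether equal numbers mark a shared animal, so no pairing was assumed.

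With duplicates, single libraries decided part of the smaller counts, and differences below the spread of experiment 2 could not be called. Short members such as Sec61b, Ssr2 and Spcs1 share sequence or position with other genes.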
